A study of Homo sapiens with 6 samples.

Results

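The genes described here are 10 of the 18132 measured: the 7 subunits of the transcription factor AP-1 (FOS, FOSB, FOSL1, FOSL2, JUN, JUNB and JUND) and the immediate-early genes EGR1, IER3 and PHLDA1. They were taken by symbol, through the 34 of 44988 probe sets whose platform annotation names one of them and no other gene. The data are 6 Affymetrix PrimeView arrays. Of these, 3 came from cells given a lentivirus that carries a short hairpin RNA (shRNA) against SHCBP1, a binding partner of the growth factor adaptor SHC1, and 3 from cells given a control shRNA virus. By its titles the study used TPC-1, a human cell line from papillary thyroid carcinoma, but the text on RNA extraction speaks of DLD1, which is a line from colorectal cancer. Both groups were grown in RPMI1640 with fetal bovine serum, and no label gives a time after the virus was added. The labels do not say whether the samples of a group came from separate cultures, so the spread behind each p-value may be no more than technical. A second hairpin or a rescue is not among the samples analysed here, so an effect of losing SHCBP1 and an unrelated effect of the hairpin cannot be told apart.

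AP-1 is a dimer of a JUN protein with a FOS protein or with another JUN protein, held together by a leucine zipper. Immediate-early genes are transcribed within minutes of a growth factor signal, with no need for new protein, when ERK and related kinases activate factors such as ELK1 and SRF already bound to their promoters. Their transcripts decay quickly, so their levels follow the signal. In papillary thyroid carcinoma ERK signalling is commonly switched on by a mutation or gene fusion, and TPC-1 carries a RET fusion.

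The deposited values are RMA values, taken as log2, centred so that the 6 values of a probe set have a median of 0. A value therefore compares arrays for one gene, and says nothing of how strongly that gene is expressed or how it compares with another gene. SHCBP1 itself was lower in the SHCBP1 shRNA arrays by a log2 difference of -1.54 ± 0.06 (standard error, SE, n = 3 arrays per group), and passed limma's test (Benjamini-Hochberg adjusted p = 1.87e-06). Because the levels are lost, the labelled line could not be checked by which markers are present. Of 7 thyroid follicular cell markers tested 1 was higher in the SHCBP1 shRNA arrays (FOXE1, 0.24), and of 7 intestinal markers 2 were (LGR5, 0.58, and CDX2, 0.12), by limma at an adjusted p under 0.05. By the same test 22.0% of all genes were called higher, and the counts of both lists lie near that share. None of either list was lower, where 19.0% of all genes were. At an unadjusted p under 0.05 the count lower was also 0 of 7 in each. No summed level can be formed from centred values. The part of these markers in the results was not tested. The call of CDX2 was lost without control shRNA replicate 1 (limma, Benjamini-Hochberg adjusted p = 0.0653), and likewise without replicate 2 or 3 of the SHCBP1 shRNA (adjusted p = 0.0507 and adjusted p = 0.0607).

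Of the 10 genes 5 fell in the SHCBP1 shRNA arrays: PHLDA1, IER3, FOSL1, EGR1 and JUNB, in order of size. PHLDA1 was 3.0-fold lower and IER3 2.36-fold lower, while the other 3 were 1.23-fold, 1.20-fold and 1.15-fold lower. FOS, FOSB, FOSL2, JUN and JUND did not pass the test, limma's moderated test at a threshold of 0.05 after Benjamini-Hochberg adjustment over the 18132 genes. No gene of the 10 rose, and 0 had a positive difference at an unadjusted p under 0.05. Among all genes 19.0% were called lower and 41.0% were called in either direction, so 5 calls in 10 are to be read against a background that is itself high. A fall of at least 2-fold, seen for 2 of the 10, was found for 0.904% of all genes. The 10 genes were chosen with earlier results of these data known, so these shares are no independent test of the set. The median difference of the 10 genes was -0.16 on the log2 scale, against 0.02 for all genes. Of the 7 AP-1 subunits alone 2 were lower, with a median of -0.09.

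**Figure D1:**
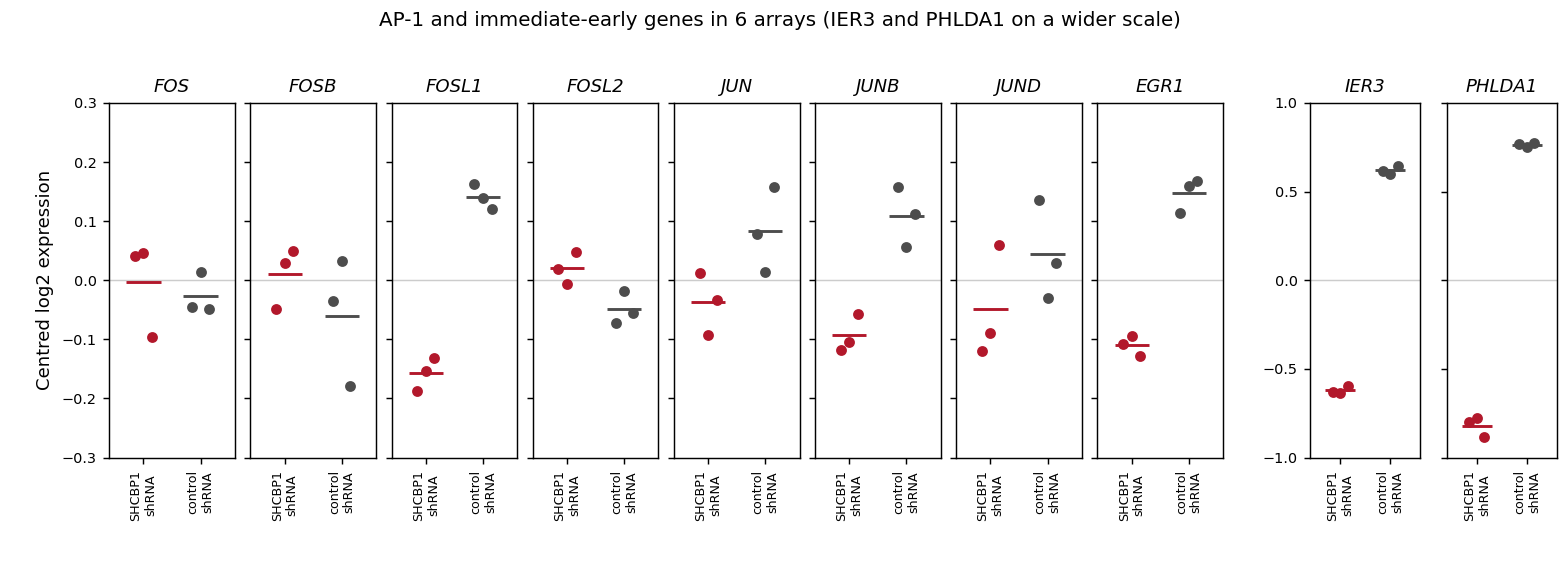
Centred log2 expression of each of the 10 genes (vertical axis) in the 3 SHCBP1 shRNA arrays (red, left) and the 3 control shRNA arrays (grey, right), with 1 point per array and a bar at the group mean. IER3 and PHLDA1, on a wider axis than the others, sit near -0.62 and -0.82 in the SHCBP1 shRNA arrays and near 0.62 and 0.77 in the control shRNA arrays.

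Each change is measured against the rest of the genes. Spike-in control transcripts (poly-A RNA added before labelling, 24 probe sets) ran from 0.17 to 0.24 in the SHCBP1 shRNA arrays and from -0.29 to -0.17 in the control shRNA arrays, a log2 difference of 0.43 ± 0.04 (SE). When arrays were scaled to them all 10 genes were lower (limma, adjusted p under 0.05), including FOS at -0.41, FOSB at -0.36 and FOSL2 at -0.36, whose unscaled differences lie above 0. So were 16268 of all 18132 genes, because this scaling lowers every gene by 0.43. The count of 10 is therefore not particular to these genes. A lower value in bulk RNA cannot tell fewer expressing cells from less RNA per cell.

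The region before the transcription start is shown for 3 genes that fell (PHLDA1, EGR1 and JUNB) and for FOS, the textbook immediate-early gene, which did not pass the test. Each is the 250 bases upstream of the start, 5′ to 3′ on the gene's strand, from the RefSeq promoter table for GRCh38.p14, which matched 8 of the 10 genes by symbol. FOSL1 and IER3 did not match. Capitals mark matches, on either strand, to the CArG box bound by SRF, the AP-1 site TGAGTCA, the cyclic AMP response element TGACGTCA, the ETS core CCGGAA, the GC box GGGCGG or the TATA box TATAAA. No matches overlapped one another.
PHLDA1 (chr12:76031777-76032026, minus strand): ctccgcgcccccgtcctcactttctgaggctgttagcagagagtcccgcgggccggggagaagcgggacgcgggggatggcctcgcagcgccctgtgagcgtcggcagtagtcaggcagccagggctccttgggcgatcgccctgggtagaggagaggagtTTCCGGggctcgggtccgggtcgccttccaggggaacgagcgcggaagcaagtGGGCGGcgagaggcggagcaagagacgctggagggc
EGR1 (chr5:138465229-138465478, plus strand): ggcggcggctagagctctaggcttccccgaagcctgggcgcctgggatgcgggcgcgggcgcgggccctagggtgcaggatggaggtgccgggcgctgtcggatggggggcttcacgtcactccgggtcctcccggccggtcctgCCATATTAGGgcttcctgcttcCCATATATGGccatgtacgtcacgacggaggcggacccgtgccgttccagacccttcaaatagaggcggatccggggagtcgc
JUNB (chr19:12791236-12791485, plus strand): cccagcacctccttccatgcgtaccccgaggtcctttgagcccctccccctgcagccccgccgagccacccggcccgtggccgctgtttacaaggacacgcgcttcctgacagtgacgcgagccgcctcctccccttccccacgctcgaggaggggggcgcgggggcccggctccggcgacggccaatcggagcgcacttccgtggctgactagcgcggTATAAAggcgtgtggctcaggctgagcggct
FOS (chr14:75278578-75278827, plus strand): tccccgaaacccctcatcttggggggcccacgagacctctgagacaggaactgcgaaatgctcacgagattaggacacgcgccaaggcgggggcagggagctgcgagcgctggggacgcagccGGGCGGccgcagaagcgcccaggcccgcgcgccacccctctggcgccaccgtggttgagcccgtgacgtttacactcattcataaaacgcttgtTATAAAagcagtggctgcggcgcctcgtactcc
The EGR1 window holds 2 CArG boxes, CCATATTAGG from 105 to 96 bases and CCATATATGG from 83 to 74 bases before the start, whereas 1.16% of 35114 promoter windows of the same length hold 1 or more. None of the other 7 windows searched holds a match. Sequence further than 250 bases upstream was not searched, so a CArG box there would be missed. The PHLDA1 window holds an ETS core and a GC box, elements present in 14.5% and 42.6% of all windows. The JUNB and FOS windows, like that of FOSB, hold a TATA box that begins 30 to 33 bases before the start, and 10.7% of all windows hold a match. The exact letters TGAGTCA are in none of the 8 windows and in 4.20% of all windows. The exact letters TGACGTCA are in the JUND window and in 1.65% of all. Variants of these sequences were not searched, so a window without a match may still hold such an element. Genes that fell and genes that did not pass the test thus share several of these elements. A match is a run of letters in this window and no evidence of binding.

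Among FOS family genes, FOSL1 fell and the other 3 did not pass the test. FOSL1 encodes Fra-1, a subunit without the strong activation domain of FOS and one whose protein is stabilised by ERK. Its gene means were -0.19, -0.15 and -0.13 in the SHCBP1 shRNA arrays and 0.16, 0.14 and 0.12 in the control shRNA arrays. All 3 values of the first group lay below all 3 of the second. The log2 difference was -0.30 ± 0.03 (SE, n = 3 per group, 95% confidence interval -0.38 to -0.22, limma with Benjamini-Hochberg adjustment, adjusted p = 0.000245).

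The 6 probe sets of FOSL1 did not move alike. Of these, 4 were lower by limma's test over all 44988 probe sets, a threshold that 18.2% of all probe sets passed in this direction. The largest fall was -0.59 ± 0.09 (11724478_s_at), and the 2 probe sets that did not pass had -0.22 (11724477_a_at) and 0.04 (11760573_a_at). Names that end in _s_at or _x_at mark probes that may match other sequences as well. Without such probe sets, and with those ending in _a_at kept, the gene's difference was -0.15 (limma, adjusted p = 0.0228). One of the 4 calls, 11760284_a_at, was lost in 5 of the 6 fits that each left out an array: without any of the control shRNA arrays (adjusted p from 0.0605 to 0.113) and without SHCBP1 shRNA replicate 1 or 3 (adjusted p = 0.102 and adjusted p = 0.107). The probe set 11724477_a_at passed without control shRNA replicate 1 (adjusted p = 0.0126) and also without replicate 3 of the SHCBP1 shRNA (adjusted p = 0.0486).

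FOSL2, which encodes the related subunit Fra-2, averaged out to no call while its probe sets disagreed. Its gene means were 0.02, -0.01 and 0.05 in the SHCBP1 shRNA arrays and -0.07, -0.02 and -0.05 in the control shRNA arrays. The groups did not overlap, but the difference of 0.07 ± 0.03 (SE, 95% confidence interval -0.01 to 0.15) did not pass limma's test (adjusted p = 0.156). Underneath, probe set 11731599_a_at had 0.18, 0.13 and 0.23 in the SHCBP1 shRNA arrays and -0.19, -0.13 and -0.18 in the control shRNA arrays. It was the only one of the 34 probe sets called higher, at 0.35 ± 0.04 (limma, adjusted p = 0.000583), where 20.3% of all probe sets were called higher. Probe set 11763171_at of the same gene went the other way, with -0.18, -0.12 and -0.08 in the SHCBP1 shRNA arrays and 0.08, 0.13 and 0.11 in the control shRNA arrays. Its difference was -0.23 ± 0.04 (limma, adjusted p = 0.00433). The other 3 ran from 0.00 to 0.20, and 11731600_a_at passed as higher without control shRNA replicate 2 (0.28, limma, adjusted p = 0.011). FOSL2 is the only one of the 10 genes with calls in both directions, which occurred in 482 of 11734 genes with several probe sets (4.11%). When each gene was represented by its most variable probe set, FOSL2 counted as higher (0.35, adjusted p = 0.000868).

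FOS, the founding subunit and a rapid target of ERK, had gene means from -0.10 to 0.05 in the SHCBP1 shRNA arrays and from -0.05 to 0.01 in the control shRNA arrays. The groups overlapped and the difference was 0.02 ± 0.05 (SE, 95% confidence interval -0.09 to 0.14, limma, adjusted p = 0.748). None of its 4 probe sets passed limma's test, adjusted or at an unadjusted p under 0.05, and they ran from -0.03 to 0.09. FOSB, a subunit with a truncated splice form known from the brain, ran from -0.05 to 0.05 in the SHCBP1 shRNA arrays and from -0.18 to 0.03 in the control shRNA arrays. Its groups overlapped as well, with a difference of 0.07 ± 0.06 (SE, 95% confidence interval -0.07 to 0.21, limma, adjusted p = 0.41). Without spike-in scaling, the interval of FOS leaves out a fall as large as that of FOSL1, and so does that of FOSB. The genes were not tested against each other, and the centred values do not show how strongly any of them is expressed.

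In the JUN family JUNB fell, and JUN and JUND had negative differences that did not pass. JUNB encodes a subunit that activates transcription less strongly than JUN and can restrain it. Its single probe set, 11715673_x_at, had -0.12, -0.10 and -0.06 in the SHCBP1 shRNA arrays and 0.16, 0.06 and 0.11 in the control shRNA arrays. The groups were separate, by a gap wider than the range within either of them. The difference was -0.20 ± 0.04 (SE, 95% confidence interval -0.29 to -0.11, limma, adjusted p = 0.0043).

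JUN, the subunit that gives AP-1 its main activating partner, had gene means of 0.01, -0.09 and -0.03 in the SHCBP1 shRNA arrays and 0.08, 0.01 and 0.16 in the control shRNA arrays. The highest SHCBP1 shRNA value and the lowest control shRNA value nearly met. The difference was -0.12 ± 0.05 (SE, 95% confidence interval -0.23 to -0.01), with an unadjusted p = 0.0395 and an adjusted p = 0.087 by limma. It passed without control shRNA replicate 2, at -0.16 (limma, adjusted p = 0.0495), the array with the lowest control value. All 4 of its probe sets had negative differences, from -0.17 to -0.03, and 1 was called lower (11718396_x_at). That call was lost without any 1 of 5 of the arrays (limma, adjusted p from 0.0559 to 0.105) and kept only without control shRNA replicate 1. Without control shRNA replicate 2, both 11718395_s_at and 11718397_s_at passed (limma, adjusted p = 0.0219 and adjusted p = 0.0437).

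JUND, a subunit that many cells express steadily rather than on demand, had -0.12, -0.09 and 0.06 in the SHCBP1 shRNA arrays and 0.14, -0.03 and 0.03 in the control shRNA arrays from its 1 probe set. The groups overlapped, and the difference of -0.09 ± 0.06 (SE, 95% confidence interval -0.24 to 0.05) did not pass limma's test (adjusted p = 0.286).

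**Figure D2:**
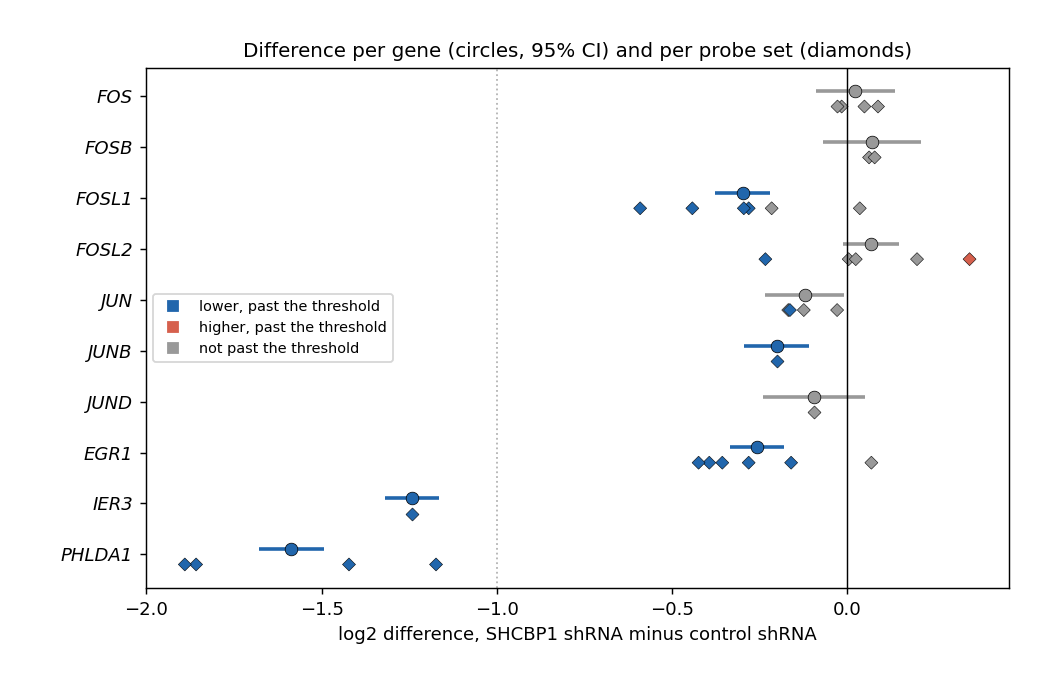
Log2 difference, SHCBP1 shRNA minus control shRNA (horizontal axis), for each of the 10 genes: circles are gene means with their 95% confidence interval, diamonds are single probe sets, and the dotted line marks a 2-fold fall. Gene values run from -1.59 for PHLDA1 to 0.07 for FOSB, and the probe sets of FOSL2 lie on both sides of 0.

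EGR1, a zinc finger factor that is induced alongside FOS through SRF and whose CArG boxes are shown above, fell. Its gene means were -0.11, -0.09 and -0.13 in the SHCBP1 shRNA arrays and 0.11, 0.16 and 0.17 in the control shRNA arrays. The groups did not overlap, and the lowest control value stood well above the highest SHCBP1 shRNA value. The difference was -0.26 ± 0.03 (SE, 95% confidence interval -0.34 to -0.18, limma, adjusted p = 0.000508). Of its 6 probe sets 5 were called lower, from -0.42 to -0.16, and 11751643_x_at had 0.07 ± 0.05 and no call. The call of 11754334_s_at had the highest adjusted p of the 5 (limma, adjusted p = 0.0489), and it was lost in all but 1 of the fits without an array (without control shRNA replicate 3 it stayed). That of 11717861_a_at was lost without control shRNA replicate 2 or 3 and without SHCBP1 shRNA replicate 3 (limma, adjusted p from 0.0826 to 0.0839). By its most variable probe set over the 6 arrays, a choice that favours large group differences, the gene's difference was -0.42.

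IER3 and PHLDA1 are the members that lie far from the rest. IER3 encodes a short-lived stress-inducible protein that influences ERK signalling and cell survival. Its 1 probe set, 11720062_s_at, had -0.63, -0.63 and -0.60 in the SHCBP1 shRNA arrays and 0.62, 0.60 and 0.65 in the control shRNA arrays. The distance between the groups was many times the spread within them. The difference was -1.24 ± 0.03 (SE, 95% confidence interval -1.32 to -1.16, limma, adjusted p = 5.14e-07), the 76th largest fall of 18132 genes.

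PHLDA1 encodes a protein with a pleckstrin homology-like domain, induced by ERK signalling and known to dampen signalling from some growth factor receptors. Its gene means were -0.80, -0.78 and -0.89 in the SHCBP1 shRNA arrays and 0.77, 0.75 and 0.77 in the control shRNA arrays. The control arrays lay closest together of either group in any of the 10 genes, with an SD of 0.01. The difference was -1.59 ± 0.04 (SE, 95% confidence interval -1.68 to -1.49, limma, adjusted p = 4.20e-07), the 22nd largest fall of all genes, beside -1.54 for SHCBP1. All 4 probe sets fell by at least 2-fold, by -1.17, -1.42, -1.86 and -1.89. The 2 largest falls came from 11721306_at and 11721308_at. Of all probe sets 1.42% were lower by that much.

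The genes whose 6 array values came closest to those of PHLDA1, outside the 10, were APOO, FUCA1 and APPL1, by the root mean square distance over the 6 arrays (0.039, 0.054 and 0.054 on the log2 scale). Their differences were -1.54, -1.49 and -1.60. APOO encodes a mitochondrial inner membrane protein, FUCA1 a lysosomal fucosidase and APPL1 an endosomal adaptor. With centred values this likeness mostly reflects a difference of equal size. No gene of the 10 rose, so the same search was not made for a rise. In the PHLDA family PHLDA2, which carries the same kind of domain, fell by 0.75 ± 0.03 (SE, limma, adjusted p = 3.06e-06, from 1 probe set) and PHLDA3 had 0.08 ± 0.05 (adjusted p = 0.226).

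Over all 34 probe sets 17 were called lower and 1 higher, where 18.2% and 20.3% of all probe sets were called in these directions. Of the 17, 13 remained called in each of the 6 fits that left out an array, and the exceptions were the 4 named above of FOSL1, JUN and EGR1 (11760284_a_at, 11718396_x_at, 11717861_a_at and 11754334_s_at). IER3, JUNB and JUND rest on 1 probe set each, all of the _s_at or _x_at kind. In 7 of the 10 genes the groups did not overlap, against 50.0% of all genes.

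The rest of the pathway was read from 5 lists of genes, none of them among the 10, given as counts with no test of the list. Of 28 other immediate-early genes tested 12 fell and 6 rose, where 19.0% of all genes were called lower and 22.0% higher. Their median difference was -0.09 against 0.02 for all genes. The transcription factor gene MYC fell by 1.21 ± 0.05, the kinase genes SGK1 and PLK2 by 0.73 and 0.70 (-0.73 ± 0.04 and -0.70 ± 0.03), and the matrix protein gene CCN1 rose by 2.05 ± 0.03. MYC had -0.61, -0.55 and -0.72 in the SHCBP1 shRNA arrays and 0.55, 0.61 and 0.58 in the control shRNA arrays. The immediate-early genes did not share a direction.

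Of 14 other leucine zipper factors that can pair with FOS or JUN proteins 6 fell and 3 rose, with a median of 0.00. The shares of all genes were 19.0% lower and 22.0% higher. The antioxidant regulator gene NFE2L2 fell by 0.67 ± 0.03, the stress factor gene DDIT3 by 0.56 (-0.56 ± 0.05) and the small MAF gene MAFF, which is also in the immediate-early list, by 0.54 (-0.54 ± 0.05). BATF, a partner of JUN proteins best known from lymphocytes, rose by 0.62 ± 0.05 from its 1 probe set. BATF had 0.30, 0.35 and 0.26 in the SHCBP1 shRNA arrays and -0.28, -0.42 and -0.26 in the control shRNA arrays.

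Of 18 kinases and transcription factors that act upstream 6 fell and 6 rose, beside 19.0% and 22.0% of all genes, with a median of 0.01. MAP2K4, a kinase that activates JNK, rose by 0.42 ± 0.05 and the SRF co-activator gene MRTFA by 0.27 ± 0.04. Both lie below 0 with spike-in scaling, at -0.015 and -0.16. The ETS factor gene ELK3, which binds with SRF, fell by 0.35 ± 0.05, and MRTFB fell by 0.25 ± 0.06. Without _s_at and _x_at probe sets neither fall passed (ELK3 -0.05, limma, adjusted p = 0.73, and MRTFB -0.01, adjusted p = 0.93). With the median in place of the mean of its probe sets MRTFB did not pass either (-0.13, limma, adjusted p = 0.223).

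Of 20 genes known as AP-1 targets 10 fell and 2 rose, with a median of -0.11, where 19.0% of all genes were called lower and 22.0% higher. Fits that each left out an array called 8 to 9 lower and 2 to 3 higher. Without _s_at and _x_at probe sets 6 of 18 were lower and 1 higher. MMP13 counted among the 10 at -0.10, though 0 of its 5 probe sets were called. The growth factor genes VEGFA and HBEGF fell by 1.16 ± 0.04 and 0.95 (-0.95 ± 0.08), and the adhesion receptor gene CD44 by 0.70 (-0.70 ± 0.04). HMOX1, which encodes the haem-degrading enzyme and is also a target of NFE2L2, rose by 1.24 ± 0.03. Probe sets ranged from -1.61 to -0.39 for VEGFA and from -1.34 to -0.32 for CD44. HBEGF had -0.66, -0.45 and -0.37 in the SHCBP1 shRNA arrays and 0.39, 0.39 and 0.57 in the control shRNA arrays. Most of these genes answer to other factors as well.

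Of 12 factors that degrade immediate-early transcripts or AP-1 proteins, or protect them, 9 fell and 0 rose by limma (also 0 at an unadjusted p under 0.05), with a median of -0.26. Over all genes 19.0% were called lower and 22.0% higher. ITCH, a ubiquitin ligase for JUN proteins, fell by 0.76 ± 0.04, the deadenylase gene CNOT7 by 0.60 (-0.60 ± 0.03), ZFP36L2, whose protein binds AU-rich elements, by 0.37 (-0.37 ± 0.04) and ELAVL1, whose protein stabilises such transcripts, by 0.35 (-0.35 ± 0.03). Probe sets of CNOT7 ranged from -1.23 to 0.42, with 5 called lower and 1 higher, and those of ITCH from -1.32 to -0.27. HNRNPD, also among the 9, had 6 probe sets called lower and 2 higher (-0.75 to 0.52). By their gene means, members with opposite known roles thus fell alike.

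**Figure D3:**
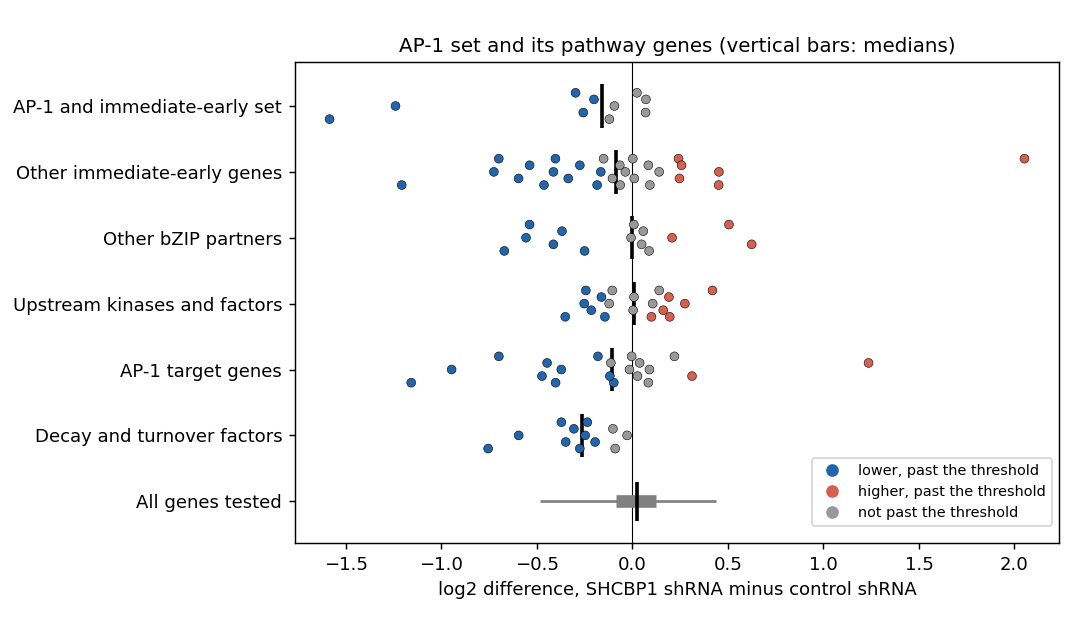
Log2 difference, SHCBP1 shRNA minus control shRNA (horizontal axis), with 1 point per gene for the 10 genes described here and for 5 lists of pathway genes, coloured by limma's call, and a vertical bar at each median. The grey bar for all 18132 genes spans the middle 50% and its line runs from the 5th to the 95th percentile (-0.48 to 0.43), a range that PHLDA1 and IER3 lie outside.

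Counted once each, 41 of the 90 tested genes of these lists and of the PHLDA family (the 10 left out) fell and 17 rose, where 19.0% of all genes were called lower and 22.0% higher. Their median was -0.10. The lists, too, were chosen with earlier results of these data known, so these shares are no independent test.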

How the data were processed

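The deposited table holds 1 value per probe set and array for 6 arrays. The authors made the deposited values with RMA, per the submitters' processing notes, and they were taken here as log2. In all 49395 probe sets the 6 values have a median of 0, and this centring step, the log base and the software version are each not given in the sources used here. Left out were 102 control probe sets, 1832 with more than 1 symbol and 2473 unnamed here. Each of 18132 genes was the mean of its probe sets naming only that gene, with no filter, since centred values hold no brightness. Unpaired differences were fitted in limma 3.58.1 (lmFit, then eBayes; R 4.3.3) for genes and for probe sets, with Benjamini-Hochberg adjustment over each whole table and a threshold of 0.05. Errors are moderated standard errors. Precision is limited by having 3 arrays per group.

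The members and lists were chosen with earlier results of these data known. All 10 members were described, and from each list up to 4 genes that passed the threshold without overlap between the groups, largest changes first. Genes absent from the table were not analysed here. Alternatives were repeated quantile normalization, array centring, spike-in scaling, array weights, a replicate block, robust moderation, leaving out each array, and other ways to summarise probe sets. In a simulation with 18132 genes, changes of 0.25, 0.5 and 1 on the log2 scale were given to 67, 67 and 66 genes. Of these changes 35.8%, 85.1% and 98.5% were recovered. In the data 41.0% of genes were called, so these shares do not carry over directly to the data. Arrays of 1 group differed with an SD of 0.131 to 0.140, so no array repeated another.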

Additional observations from a re-analysis of the deposited data

Results flagged for a closer look

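In the SHCBP1 shRNA arrays the poly-A spike-in control probe sets, which are outside the gene comparison, averaged 0.21, against -0.22 in the control shRNA arrays, a difference of 0.43 on the log2 scale with no overlap between the groups.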

How the results depend on the processing

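The calls of the 10 genes, 5 lower and 0 higher, were the same in number with repeated quantile normalization, array centring, array weights, robust moderation and the median of probe sets, and in 5 of the 6 fits that each left out an array (5 to 6 lower, 0 higher). Titles number the replicates in both groups, but deviations of same-numbered arrays correlated at 0.02, -0.05 and 0.07, and not every array correlated best with its own number. The fit with the replicate number as a block called 5 of the 10 genes lower and 0 higher, 14 probe sets lower and 1 higher, and 3309 and 3783 of all genes. Spike-in scaling, which by construction lowers every gene by 0.43, called 10 genes lower, 33 probe sets lower and 0 higher, 81 pathway genes lower and 3 higher, and 16268 and 441 of all genes. Under it FOS stood at -0.41, FOSB and FOSL2 at -0.36, CDX2 at -0.32, FOXE1 at -0.19, MRTFA at -0.16 and MAP2K4 at -0.015. Probe sets turned to -0.38 and -0.35 (FOS, 11734659_a_at and 11749852_s_at), -0.37 and -0.36 (FOSB, 11717344_x_at and 11717345_a_at), -0.40 (FOSL1, 11760573_a_at), -0.084, -0.23, -0.43 and -0.41 (FOSL2, 11731599_a_at, 11731600_a_at, 11763169_at and 11763170_s_at) and -0.36 (EGR1, 11751643_x_at). Only plain _at probe sets, which cover 3 of the 10 genes, gave 1 lower, 8 of 32 pathway genes lower and 3 higher, and 905 lower and 995 higher of the 8354 genes that have such probe sets, with FOSL2 at -0.11. Without _s_at and _x_at probe sets, an alternative chosen after seeing the data that covers 7 of the 10 genes, 3 were lower, with 26 of 80 pathway genes lower and 15 higher, and 2926 lower and 3389 higher of 16701 genes. The most variable probe set, a choice that favours large group differences, made 1 gene higher (FOSL2). FOS was at -0.014 with the median of its probe sets, and the FOSL2 probe set 11763169_at at -0.0063 with repeated quantile normalization and -0.0056 with array centring.

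Leaving out an array gave 14 to 16 probe sets lower and 1 to 2 higher. FOS ran from -0.00070 to 0.070. Probe sets near 0 changed sign: 11734658_s_at ran from -0.078 to 0.031, 11734659_a_at from -0.040 to 0.12, 11749291_a_at from -0.071 to 0.010, 11749852_s_at from -0.0061 to 0.16, 11717345_a_at from -0.017 to 0.14, 11760573_a_at from -0.011 to 0.13 and 11763169_at from -0.049 to 0.064. No call rested on these. The cause of the differences between ways to summarise probe sets was not tested.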

Other observations

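The genes in these paragraphs were chosen after their values were seen. EGR3 and EGR4, zinc finger factors of the EGR1 family, had log2 differences of 0.01 ± 0.04 and -0.04 ± 0.08 (SE) and did not pass limma's test (Benjamini-Hochberg adjusted p = 0.891 and adjusted p = 0.763), while EGR1 fell by 0.26. IER2 and IER5 had -0.06 ± 0.04 and -0.10 ± 0.04 and did not pass either (limma, adjusted p = 0.255 and adjusted p = 0.0823), whereas IER5L fell by 0.60 ± 0.06 (limma, adjusted p = 0.000117), with its 3 probe sets between -0.91 and -0.19. Despite the similar name, IER3 shares no family with IER2, IER5 or IER5L.

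The orphan nuclear receptor genes NR4A1, NR4A2 and NR4A3, also immediate-early genes, had -0.07 ± 0.03, -0.15 ± 0.06 and 0.24 ± 0.04 (SE). Only NR4A3 of these 3 passed limma's test, as higher (adjusted p = 0.00117), by less than the spike-in shift of 0.43. Of its 3 probe sets, which ran from 0.14 to 0.43, 1 was called higher. NR4A2 had 1 of its 3 probe sets called lower, and they ran from -0.23 to -0.001. KLF6 and GADD45B, further genes of rapid induction, rose by 0.45 ± 0.03 each (limma, adjusted p = 3.66e-05 and adjusted p = 2.04e-05), a size close to the spike-in shift of 0.43. Whether the differences of these genes differ from those of the members was not tested.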
